A study of Mus musculus with 12 samples.

Results

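The fibrillar collagen chains described here are 7 genes, Col1a1, Col1a2, Col3a1, Col5a1, Col5a2, Col5a3 and Col11a1, chosen by symbol from the 37991 genes of the count table. All 7 were among the 16473 genes that passed the filter on low counts, and each was tested in every comparison. Their levels were followed over 12 libraries of total RNA from mouse spinal cord, 1 mouse each, in 3 groups of 4. Every mouse was an adult over 8 weeks of age on a C57bl/6J background and carried Glast-CreERT2, R26R-YFP and Rasless, so the controls held the same alleles as the treated mice. The Cre recombinase is driven by the promoter of Glast (Slc1a3), a glutamate transporter gene that astrocytes also express; the line is used to target type A pericytes. The tissue was read without separating the recombined cells. Vehicle lesions came from mice that had solvent on 5 days, tamoxifen lesions from mice that had 2 mg of tamoxifen on each of 5 days. Both had a dorsal hemisection at high thoracic level after a clearing period of 7 days, and the site was dissected 14 days after injury. Uninjured cord segments came from mice of the same genotype whose label gives vehicle as the injection and no injury. The submitters described the vehicle lesions as densely scarred by pericyte-derived cells and the tamoxifen lesions as less so, and a lower level of scar transcripts after tamoxifen is therefore not independent of that description.

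Fibrillar collagens are the rope-like proteins of connective tissue. Each chain has a long run of triplets that begin with glycine, which lets 3 chains wind into a triple helix, and the helices line up into banded fibrils outside the cell. Type I collagen, made of Col1a1 and Col1a2 products, and type III collagen, a trimer of the Col3a1 product, make up the bulk of fibrils in most soft tissue, while types V and XI are minor chains that start fibrils and limit their width. In the healthy cord these fibrils lie mainly in the meninges and around larger vessels, and in a lesion they are laid down in the fibrotic part of the scar.

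The shared feature of the family is visible in the messenger RNA. The longest unbroken run of codons in which every triplet begins with a glycine codon held 337 to 344 triplets in the 7 reference transcripts, and covered between 55.2% (Col5a1) and 74.1% (Col1a2) of the coding sequence. The first 36 bases of that run, from the reference transcripts of GENCODE M21 on GRCm38, are shown to let the repeat be seen; capitals mark the glycine codons (GGN).

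Col1a1: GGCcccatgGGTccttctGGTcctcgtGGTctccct

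Col1a2: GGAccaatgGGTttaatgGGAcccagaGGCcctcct

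Col3a1: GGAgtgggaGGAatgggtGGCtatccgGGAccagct

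Col5a1: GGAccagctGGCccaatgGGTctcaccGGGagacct

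Col5a2: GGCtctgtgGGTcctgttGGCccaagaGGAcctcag

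Col5a3: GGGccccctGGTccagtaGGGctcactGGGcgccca

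Col11a1: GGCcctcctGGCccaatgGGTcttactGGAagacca

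Of the codons of the run other than the leading glycine codons, from 28.6% (Col1a2) to 36.1% (Col5a1) were proline codons (CCN). In spite of the shared repeat, few stretches were identical to other genes: of the 31-base words of each gene's transcripts, 0.0459% (Col1a1) to 2.18% (Col5a1) also occurred in another gene, with 1.12% for Col3a1. Col5a1 overlaps the antisense genes 2810430I11Rik and Gm13372, and Col5a3 overlaps Gm26274 on the other strand. Whether the counting used strand is not given in the sources used here, so reads of these pairs cannot be told apart. On their own strand, Col1a2 overlaps Gm43921, Col3a1 overlaps Gm47302 and Col5a2 overlaps Gm38211, and use of strand would not separate those pairs. Col3a1 and Col5a2 are neighbours on chromosome 1 and are read from opposite strands.

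Promoter sequence from RefSeq (GRCm38.p6) matched 5 of the 7 genes. The 150 bases before the start of Col1a2 and of Col3a1 are shown because, of the matched windows, only these lay wholly before their gene. Capitals in the first mark its CCAAT motif, the 1 match of that motif on either strand, 105 bases before the start. The second held 1 match to TATAAA, 112 bases before the start.

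Col1a2, chr6:4505468-4505617, plus strand: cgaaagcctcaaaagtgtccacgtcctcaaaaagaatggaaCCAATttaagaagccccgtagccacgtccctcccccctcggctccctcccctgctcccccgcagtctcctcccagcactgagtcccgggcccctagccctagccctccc

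Col3a1, chr1:45311388-45311537, plus strand: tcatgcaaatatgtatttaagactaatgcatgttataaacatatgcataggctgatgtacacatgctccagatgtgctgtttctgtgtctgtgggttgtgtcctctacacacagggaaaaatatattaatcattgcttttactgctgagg

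The Col1a2 window was 62.7% G and C and the Col3a1 window 37.3%, against a median of 54% over 32851 promoters. On both strands, CCAAT occurred in 24.5% of promoters of this length, TATAAA in 7.57%, GGGCGG in 28.6% and TGANTCA in 4.24%. Neither GGGCGG nor TGANTCA was found in these 2 windows.

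Total counts ran from 7967970 to 12581324 per library, and the 7 genes together held between 1628 (uninjured library 467) and 99174 (vehicle library 457) of them. Markers of neurons, oligodendrocytes and astrocytes were high in all 12 libraries, with summed levels of at least 3597 CPM for neurons, 16338 for oligodendrocytes and 4979 for astrocytes. Sex, muscle transcripts and sample names were unevenly spread over the groups. Of 4 mice each, 1 uninjured, 3 vehicle and 0 tamoxifen mice were male by Xist and Y-linked transcripts. Skeletal muscle markers (mean log2 CPM above 2) were high in uninjured libraries 377 and 385 and vehicle libraries 402, 429 and 457, and in no tamoxifen library. The sample names in the labels run from 1 to 20, except 106, 107 and 108 for tamoxifen libraries 513, 549 and 564. No label says that the samples came from separate litters or days, and p-values measure the spread between these mice.

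In vehicle lesions all 7 fibrillar collagen genes rose over uninjured cord (26.7% of all genes tested did), most of all Col3a1 (53.1-fold) and least Col11a1 (1.71-fold). In tamoxifen lesions all 7 were lower than in vehicle lesions (8.33% of all genes were), Col3a1 by 13.8-fold and Col11a1 by 1.82-fold. Against uninjured cord, tamoxifen lesions still held more of Col3a1, Col5a1, Col5a2 and Col5a3, by 1.86-fold to 3.85-fold (26.3% of all genes were higher), while Col1a1, Col1a2 and Col11a1 did not pass the test. Levels below are TMM-scaled counts-per-million (CPM), given for libraries 376, 377, 385 and 467 of uninjured cord, 402, 428, 429 and 457 of vehicle lesions and 452, 513, 549 and 564 of tamoxifen lesions, in that order.

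**Figure D1:**
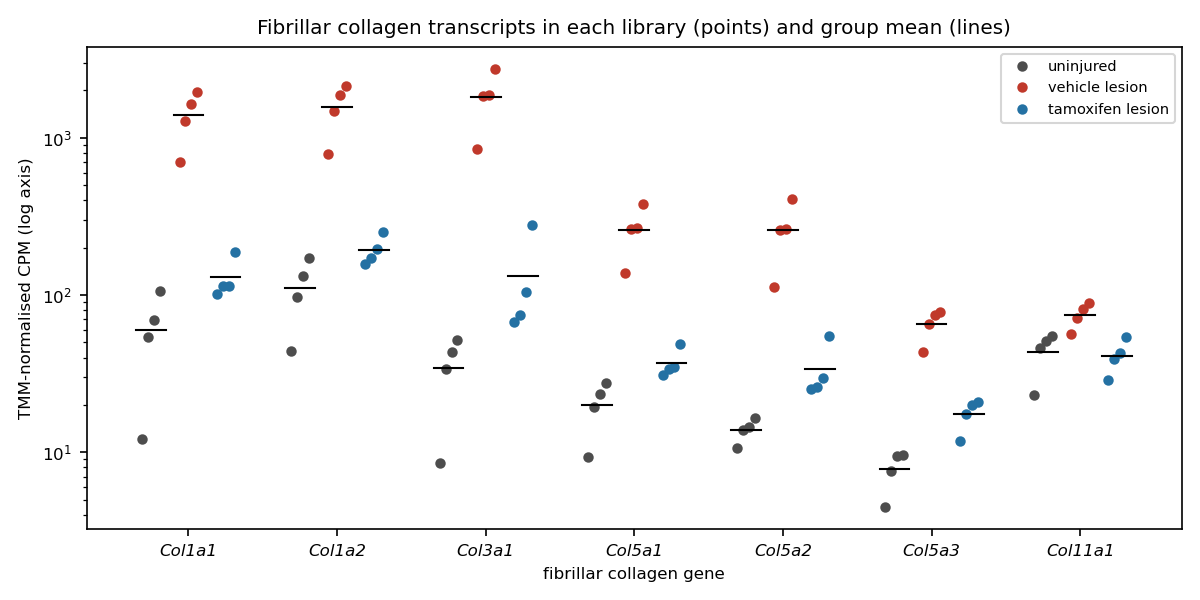
TMM-normalised CPM (log axis) of the 7 fibrillar collagen genes, with a point for each library and a line at the mean of each group of 4. Vehicle libraries lie above all other libraries for every gene, by a wide margin for Col1a1, Col1a2 and Col3a1 and a narrow one for Col11a1.

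Type I collagen is the main fibril protein of scar, and its alpha 1 chain is the product of Col1a1 (ENSMUSG00000001506). Uninjured libraries stood at 106, 69.0, 53.8 and 12.2 CPM of Col1a1. Vehicle libraries stood at 1626, 698, 1272 and 1949 CPM. Tamoxifen libraries stood at 113, 114, 101 and 189 CPM. Each vehicle library was above every other library, and the lowest tamoxifen library (549) was below the highest uninjured one (376). Col1a1 rose 23.1-fold in vehicle lesions (log2 change 4.53 ± 0.53 SE, edgeR quasi-likelihood, Benjamini-Hochberg adjusted p = 2.78e-05). From vehicle to tamoxifen lesions it fell by 3.42 on the log2 scale (± 0.50 SE, adjusted p = 0.0022). Between tamoxifen lesions and uninjured cord the log2 difference was 1.11 ± 0.48 (SE, adjusted p = 0.0712), with a 95% interval of 0.07 to 2.14.

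Col1a2 (ENSMUSG00000029661), the alpha 2 chain of type I collagen, had the highest mean FPKM of the 7 in uninjured cord. It stood at 171, 132, 96.7 and 43.8 CPM in uninjured libraries. In vehicle lesions the values were 1866, 791, 1480.1 and 2143 CPM. In tamoxifen lesions they were 171, 196, 157 and 249.7 CPM. Vehicle libraries again stood apart, and 2 tamoxifen libraries, 452 and 549, were level with or below uninjured library 376. The rise with injury was 14.2-fold (log2 3.83 ± 0.40 SE, adjusted p = 1.35e-05), and with tamoxifen the gene fell by 3.02 on the log2 scale (± 0.38 SE, adjusted p = 0.000969). Tamoxifen lesions and uninjured cord differed by 0.81 ± 0.36 (log2, SE), which did not pass the test (adjusted p = 0.083, 95% interval 0.02 to 1.59).

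Type III collagen forms thin fibrils with type I in vessel walls and early scar. Its only chain, Col3a1 (ENSMUSG00000026043), was at 51.8, 43.4, 33.7 and 8.60 CPM in uninjured cord. Vehicle lesions held 1855, 844, 1829 and 2734 CPM. Tamoxifen lesions held 74.7, 104, 67.7 and 278 CPM. No 2 groups overlapped, and tamoxifen library 564 stood far above the other 3. Col3a1 had the largest rise of the 7 (log2 5.73 ± 0.64 SE, adjusted p = 2.01e-05) and the largest fall with tamoxifen (fell by 3.79 on the log2 scale, ± 0.58 SE, adjusted p = 0.00253). Tamoxifen lesions stayed 3.85-fold above uninjured cord (log2 1.94 ± 0.56 SE, adjusted p = 0.0118). This call was lost without the libraries high in muscle transcripts (log2 2.13, adjusted p = 0.112) and with a term for the sample name series (log2 1.13, adjusted p = 0.391). Without library 564 the log2 difference was 1.27 (adjusted p = 0.046), and Col3a1 fell by 4.46 from vehicle to tamoxifen lesions.

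The chains of type V collagen sit inside type I fibrils and are needed to start them. The alpha 1 chain, Col5a1 (ENSMUSG00000026837), had 19.4, 27.5, 23.4 and 9.39 CPM in uninjured libraries. Its vehicle values were 265, 137, 262 and 377 CPM. Its tamoxifen values were 34.0, 34.9, 30.9 and 48.8 CPM. The groups did not overlap. Col5a1 rose 13.1-fold with injury (log2 3.71 ± 0.34 SE, adjusted p = 6.1e-06) and fell by 2.81 on the log2 scale with tamoxifen (± 0.32 SE, adjusted p = 0.000636). The tamoxifen lesions remained above uninjured cord by 0.90 ± 0.33 (log2, SE, adjusted p = 0.0384). This last call was lost when any of libraries 376, 385, 467, 513 or 564 was left out, with adjusted p between 0.0546 and 0.105, with a term for sex (adjusted p = 0.0618) and with limma on log2(FPKM + 1) (adjusted p = 0.07).

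Col5a2 (ENSMUSG00000026042), the alpha 2 chain of type V collagen, was the steadiest of the 7 in uninjured cord, at 13.9, 16.5, 14.5 and 10.6 CPM. Vehicle lesions reached 257, 112, 262 and 406 CPM. Tamoxifen lesions had 25.4, 29.7, 25.9 and 54.6 CPM. Here too no groups overlapped, and library 564 was the highest of its group. The rise with injury was 18.7-fold (log2 4.22 ± 0.38 SE, adjusted p = 5.63e-06). With tamoxifen the gene fell by 2.93 on the log2 scale (± 0.35 SE, adjusted p = 0.000736), and it stayed 2.45-fold above uninjured cord (log2 1.29 ± 0.37 SE, adjusted p = 0.0118).

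Col5a3 (ENSMUSG00000004098) encodes the alpha 3 chain of type V collagen, which has a narrower distribution than the other type V chains. It had the lowest mean FPKM of the 7 in every group, and stood at 4.48, 9.51, 9.58 and 7.64 CPM in uninjured cord. Its vehicle values were 65.6, 43.3, 78.1 and 74.8 CPM. In tamoxifen lesions it stood at 17.5, 11.8, 19.9 and 20.8 CPM. The 3 groups were apart, and the spread within tamoxifen lesions left library 564 close to 549. Col5a3 rose 8.30-fold (log2 3.05 ± 0.25 SE, adjusted p = 3.63e-06) and fell by 1.90 on the log2 scale with tamoxifen (± 0.23 SE, adjusted p = 0.000774). It had the smallest adjusted p of the 7 between tamoxifen lesions and uninjured cord, a 2.22-fold difference (log2 1.15 ± 0.25 SE, adjusted p = 0.00264).

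Col11a1 (ENSMUSG00000027966), the alpha 1 chain of type XI collagen, is best known from cartilage, where it takes the place that type V holds elsewhere. In uninjured cord it was at 23.1, 45.9, 54.7 and 50.7 CPM. In vehicle lesions it was at 81.2, 56.4, 71.8 and 88.8 CPM, and in tamoxifen lesions at 42.5, 39.0, 54.4 and 28.7 CPM. The lowest vehicle library (428) stood just above the highest uninjured library (385) and the highest tamoxifen library (549), and uninjured and tamoxifen libraries were mixed. Col11a1 rose by 0.77 ± 0.24 (log2, SE) with injury (adjusted p = 0.0182) and fell by 0.86 on the log2 scale with tamoxifen (± 0.24 SE, adjusted p = 0.0328). The rise no longer passed when vehicle library 402 (adjusted p = 0.0507) or 457 (adjusted p = 0.0593) was left out, nor the fall without 402, 429, 457, 513 or 564 (adjusted p between 0.0584 and 0.0969). With a term for sex in the model, the 2 adjusted p-values were 0.0643 and 0.171. Between tamoxifen lesions and uninjured cord the log2 difference was -0.09 ± 0.25 (SE, adjusted p = 0.788), with a 95% interval of -0.62 to 0.44.

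Vehicle lesions were set against uninjured cord to read what injury adds. All 7 members were higher, where 26.7% of all genes tested were called higher, and the groups did not overlap for any of them, as for 26.3% of all genes in that direction. Their median log2 change was 3.83, against 0.02 over all genes tested. Leaving out the 5 libraries high in muscle transcripts left 428 as the vehicle lesion, and Col5a1, Col5a2 and Col5a3 passed the test there, with 296 of 17393 genes called. The log2 changes of Col1a1, Col1a2 and Col3a1 were then 3.55, 2.86 and 4.80 (adjusted p 0.0975, 0.072 and 0.0746). Library 428 had the lowest level of all 7 genes among vehicle lesions.

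Tamoxifen lesions were compared with vehicle lesions to read the effect of the treatment at the same time after injury. All 7 members were lower, where 8.33% of all genes were called lower, and the groups did not overlap for any of them (8.77% of genes in that direction). Their median log2 change was -2.93, against 0.00107 over all genes. With a term for the sample name series the fitted changes were -0.81 for Col11a1 and -1.91 to -4.60 for the other 6, and 0 of the 7 passed (edgeR, adjusted p from 0.058 to 0.414), with 6 at an unadjusted p under 0.05. Tamoxifen library 452, whose sample name is 15, held 113 CPM of Col1a1 and 74.7 CPM of Col3a1. The 3 tamoxifen libraries of the other series held 101 to 189 CPM of Col1a1 and 67.7 to 278 CPM of Col3a1. All libraries of the other series are tamoxifen lesions, so with the series term this comparison rests on library 452 alone. The part of the sample name series in the result was not tested further. Without the libraries high in muscle transcripts, where vehicle library 428 stood alone, the log2 changes were smaller, at -2.43 for Col1a1, -2.03 for Col1a2, -2.68 for Col3a1, -1.88 for Col5a1, -1.72 for Col5a2, -1.30 for Col5a3 and -0.45 for Col11a1. In that fit 0 of the 7 passed in edgeR (adjusted p from 0.479 to 0.784) and 6 had an unadjusted p under 0.05; of all 17393 genes 0 passed there. With a term for sex, Col1a1 fell by 4.30 and Col3a1 fell by 4.56 (log2, edgeR, adjusted p 0.00718 and 0.0092), and their rises with injury were 5.31 and 6.39. Of the tamoxifen mice 0 were male, and of the vehicle mice 1 was female. The sex term was thus estimated from uninjured and vehicle mice alone, and sex and treatment are poorly separated in this fit.

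**Figure D2:**
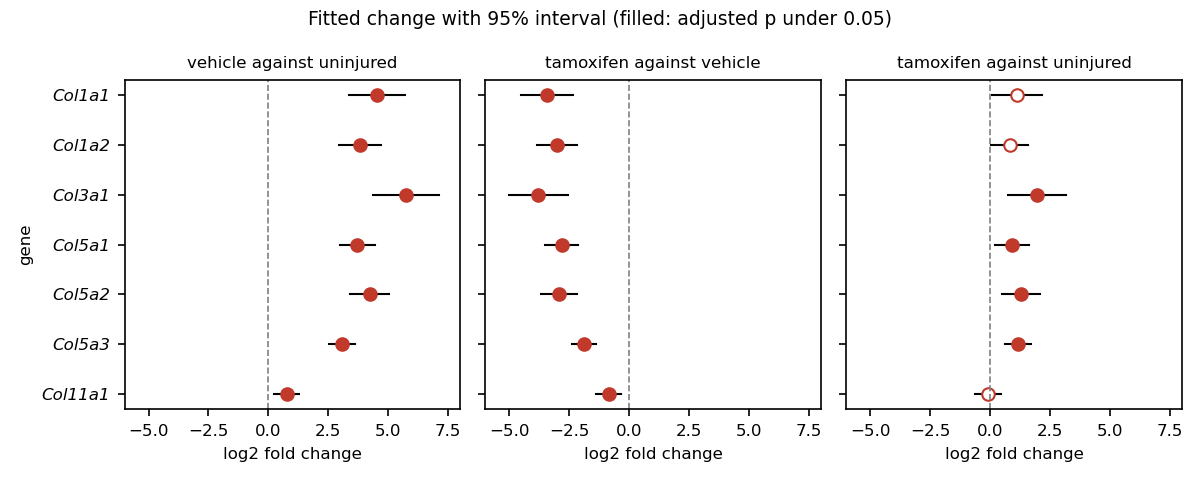
Fitted log2 fold change of each gene in the 3 comparisons, with 95% intervals; filled points passed the test at an adjusted p of 0.05. Intervals lie above 0 for all 7 genes after injury and below 0 for all 7 with tamoxifen, and the right panel has 3 open points, Col1a1, Col1a2 and Col11a1.

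Tamoxifen lesions and uninjured cord were compared to see how much of the rise was left. Of the 7 members 4 were called higher, where 26.3% of all genes were, and these 4 did not overlap between the groups (21.4% of genes in that direction). These were Col3a1, Col5a1, Col5a2 and Col5a3. The type I chains were not called, but their log2 differences, 1.11 for Col1a1 and 0.81 for Col1a2, were near the 0.90 of Col5a1. Their 95% intervals also lay above 0. By unadjusted p (edgeR), 6 of the 7 members were under 0.05. The members' median log2 change was 1.11, against 0.01 over all genes. A term for the sample name series leaves this comparison resting on tamoxifen library 452 alone. With the series term 0 of the 7 passed in edgeR (adjusted p of the 4 genes from 0.0845 to 0.391). The log2 differences were then 1.13 for Col3a1, 0.77 for Col5a1, 0.87 for Col5a2 and 1.15 for Col5a3, and 1, Col5a3, had an unadjusted p under 0.05. When uninjured library 376 was left out, Col1a1 and Col1a2 passed, with log2 differences of 1.52 (adjusted p = 0.0265) and 1.09 (adjusted p = 0.0341). Col1a1 also passed with limma on log2 FPKM (adjusted p 0.0424 with 1 added, 0.0471 with 0.1 added). The 3 comparisons share their groups, so their values are not independent of each other.

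Levels per transcript length were read from the authors' FPKM. In uninjured cord Col1a2 led at 20.2 FPKM ± 9.32 (SD, n = 4), before Col1a1 at 10.5 ± 6.72, Col11a1 at 5.69 ± 1.83 and Col3a1 at 5.20 ± 2.85. The ranges of these neighbours overlapped. In vehicle lesions Col3a1 led at 288 FPKM ± 119, before Col1a2 at 262 ± 96.6 and Col1a1 at 240 ± 91.6. Their ranges over the libraries overlapped. Within each vehicle library Col3a1 and Col1a2 were above Col1a1, and in library 402 Col3a1 was below Col1a2. Col5a2 (45.5 ± 21.1) and Col5a1 (30.3 ± 12.1) followed, then Col11a1 (10.4 ± 2.13) and Col5a3 (9.01 ± 2.22). In tamoxifen lesions the order at the top was again Col1a2 (34.6 ± 7.30), Col1a1 (23.9 ± 7.52) and Col3a1 (21.0 ± 16.3). Col11a1 thus went from the third place in uninjured cord to the sixth in vehicle lesions and the fifth, at 5.15 FPKM ± 1.41, in tamoxifen lesions.

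Summed over the 7 genes, vehicle lesions held 0.273% to 0.788% of all counts, tamoxifen lesions 0.0447% to 0.0862% and uninjured cord 0.0143% to 0.0383%, without overlap. The make-up of the pool also differed. Col3a1 took 10.1% ± 3.04 (SD, n = 4) of the summed FPKM in uninjured cord, 32.2% ± 2.05 in vehicle lesions and 19.7% ± 7.76 in tamoxifen lesions. In tamoxifen library 564 its share was 30.9%, within the vehicle range, while the other 3 were between 14.1% and 18.6%. Col11a1 took 15.1% ± 10.99 in uninjured cord, 1.27% ± 0.34 in vehicle lesions and 5.92% ± 2.84 in tamoxifen lesions. Its share reached 30.4% in uninjured library 467, where the summed FPKM was lowest at 23.1.

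**Figure D3:**
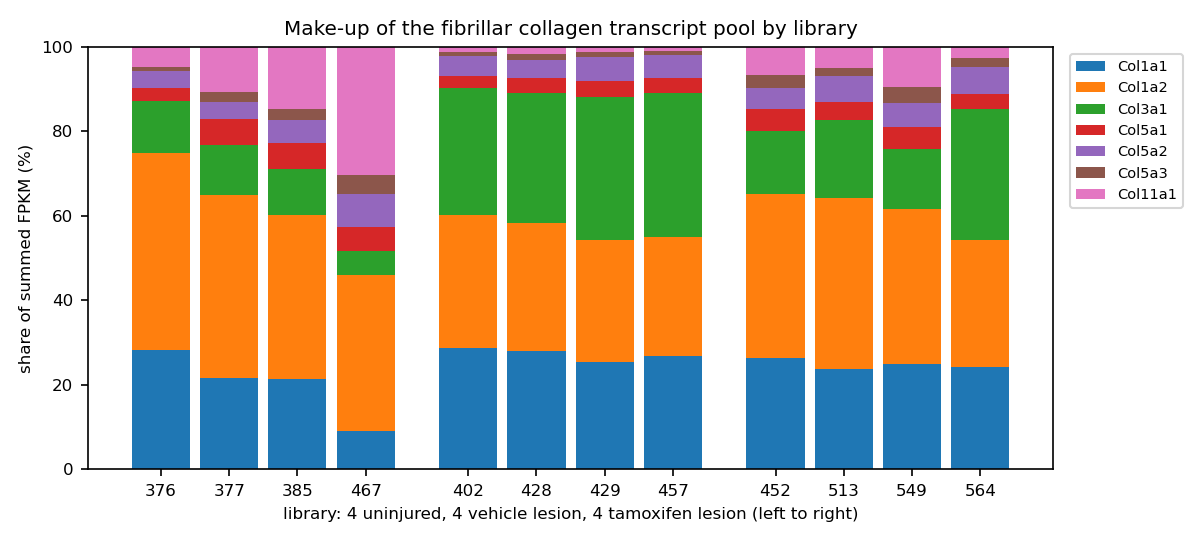
Share of each gene in the summed FPKM of the 7 genes (%), 1 bar per library. Col3a1 takes 30.2% to 34.0% in the 4 vehicle libraries and 30.9% in tamoxifen library 564, and Col11a1 is largest in uninjured library 467 (30.4%).

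Ratios between chains set aside the size of the pool. Col1a2 stood at 2.42 ± 1.17 (SD, n = 4) times the Col1a1 FPKM in uninjured cord, with a range of 1.66 to 4.16. In vehicle lesions this ratio was 1.09 ± 0.03, and in tamoxifen lesions 1.47 ± 0.18, with a range of 1.25 to 1.70. The vehicle values, 1.06 to 1.13, lay below every other library. The ratio of Col3a1 to Col1a1 was 0.531 ± 0.083 in uninjured cord, 1.19 ± 0.13 in vehicle lesions and 0.800 ± 0.338 in tamoxifen lesions. Library 564 had 1.28, inside the vehicle range of 1.05 to 1.34, and the other tamoxifen libraries started at 0.563. Col11a1 stood at 2.74 ± 1.79 times Col5a1 in uninjured cord, at 0.370 ± 0.102 in vehicle lesions and at 1.25 ± 0.45 in tamoxifen lesions, with no overlap between vehicle lesions and the other groups.

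**Figure D4:**
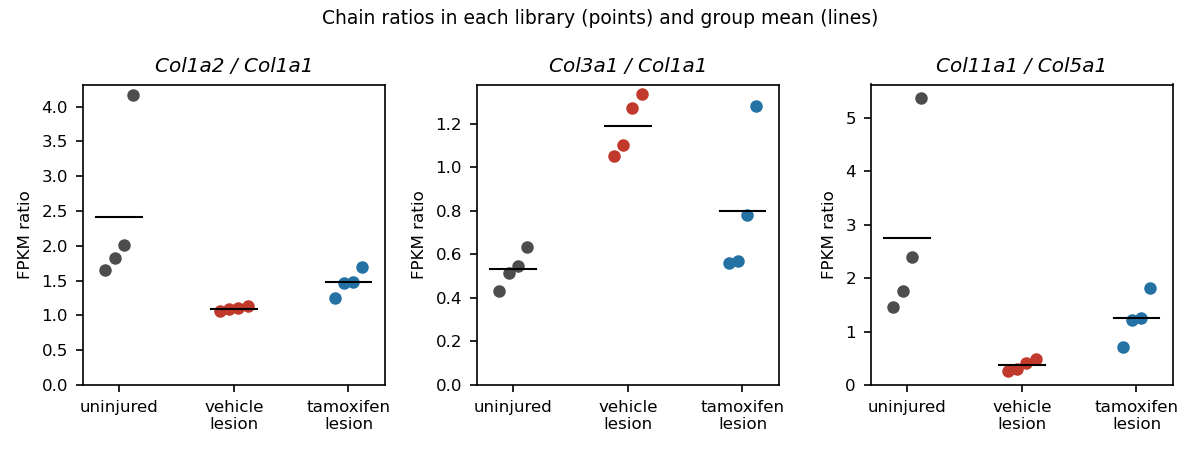
Ratio of FPKM of Col1a2 to Col1a1, Col3a1 to Col1a1 and Col11a1 to Col5a1, with a point for each library and a line at the group mean of 4. In the middle panel 1 tamoxifen point, library 564 at 1.28, lies among the vehicle libraries.

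Among the members the type I, III and V chains followed each other over the 12 libraries, and Col11a1 did so less. Pearson's r of log2 CPM was 0.994 between Col1a1 and Col1a2, 0.990 between Col1a1 and Col3a1 and 0.896 between Col1a1 and Col5a3. It was 0.557 between Col1a1 and Col11a1 and 0.762 between Col5a3 and Col11a1. These points share the group differences and the libraries, so r is a description. Within tamoxifen lesions library 564 was the highest for 6 members and the lowest for Col11a1. In uninjured cord library 467 was the lowest for Col1a1, Col1a2, Col3a1, Col5a1 and Col5a2, and 376 for Col5a3 and Col11a1.

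Genes outside the family with the most similar pattern were ranked by the same r over the 12 libraries, among 11913 genes with at least 5 CPM in vehicle lesions. For Col1a1 these were Rcn3 (0.994), Mfap5 (0.990), Bgn (0.989), C1s (0.987) and Loxl1 (0.987). Bgn encodes the fibril-binding proteoglycan biglycan, and Loxl1 a lysyl oxidase. Bgn also led for Col1a2 (0.995), C1s for Col3a1 (0.989), Filip1l for Col5a1 (0.991) and Fstl1 for Col5a2 (0.996). The genes nearest to Col5a3 were Thbs3 (0.986), Egfr (0.980) and Vasn (0.968). The nearest to Col11a1 were Cc2d1b (0.978), Uckl1 (0.954) and Gramd1a (0.952), none of which was among the first 5 genes of another member. The same held for Thbs3, Egfr and Vasn of Col5a3.

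Of the 4 other fibril-forming chains, 2 rose with injury (26.7% of all genes did) and 1 fell with tamoxifen (8.33% did). Col27a1 rose 2.65-fold with injury (adjusted p = 0.000104), from 15.7 CPM ± 2.80 (SD, n = 4) to 41.8 ± 3.01, and fell by 1.31 on the log2 scale with tamoxifen (adjusted p = 0.00255). Col11a2, a partner of Col11a1 in type XI collagen, rose by 0.67 (log2, adjusted p = 0.00954), and its difference between tamoxifen and vehicle lesions was -0.28 (adjusted p = 0.305). Col2a1, the main cartilage chain, was low in all groups (4.41, 5.86 and 8.14 CPM in uninjured, vehicle and tamoxifen) and was higher in tamoxifen lesions than in uninjured cord (log2 0.89, adjusted p = 0.0204). Col24a1 passed no test.

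The genes that fold, cut, link and remove fibrillar collagen were read from lists chosen by role. Of 20 tested genes for folding and modification, 19 rose with injury (26.7% of all genes did), at a median log2 change of 0.86. With tamoxifen 10 fell (8.33% of all genes did). P4ha2, a prolyl hydroxylase, was at 16.9 CPM ± 0.967 (SD, n = 4) in uninjured cord, 26.4 ± 4.93 in vehicle lesions and 12.2 ± 1.32 in tamoxifen lesions, where it was below uninjured cord (log2 -0.47, adjusted p = 0.0094). P3h1 and P3h3, prolyl 3-hydroxylases, fell by 0.96 and fell by 0.99 with tamoxifen (log2, adjusted p 0.000736 and 0.00106). Of this list 15 genes were higher and 1 lower in tamoxifen lesions than in uninjured cord (26.3% and 22.7% of all genes were).

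Procollagen has to lose its end pieces before it forms fibrils. Of 8 tested genes for this step 4 rose and 1 fell with injury (26.7% and 24.1% of all genes did). With tamoxifen 4 fell (8.33% of all genes did). Against uninjured cord 1 was higher and 3 were lower in tamoxifen lesions (26.3% and 22.7% of all genes were). Adamts2, which removes the amino end, fell by 1.40 with tamoxifen (log2, adjusted p = 0.000516), from 79.3 CPM to 30.1, and was then below uninjured cord at 43.1 (adjusted p = 0.0144). Bmp1, which removes the carboxyl end, fell by 0.86 (adjusted p = 0.0035) and stayed above uninjured cord (log2 0.98, adjusted p = 0.000221). Its enhancer protein Pcolce fell by 1.89 (adjusted p = 0.0111).

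Of 6 crosslinking genes 5 rose with injury (26.7% of all genes did), at a median log2 change of 2.36. With tamoxifen 4 fell (8.33% of all genes did). Loxl2 rose 12.9-fold, to 129.8 CPM ± 29.4 (SD, n = 4), and Lox 18.4-fold, to 57.4 ± 23.2. With tamoxifen Loxl2 fell by 1.77 and Lox fell by 1.96 on the log2 scale (adjusted p 0.000636 and 0.00834). Both stayed above uninjured cord, by 1.92 and 2.24 (adjusted p 6.29e-05 and 0.00223). Loxl1 fell by 2.32 (adjusted p = 0.00263), to a level that did not pass the test against uninjured cord (log2 0.47, adjusted p = 0.318).

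Fibril organisers, the proteins and minor collagens on the surface of fibrils, had the largest median changes of these lists. Of 13 tested 12 rose with injury (26.7% of all genes did), with a median log2 change of 2.77. With tamoxifen 11 fell (8.33% of all genes did), with a median of -1.85. Postn (periostin) was at 2.98 CPM ± 0.951 (SD, n = 4) in uninjured cord, 251 ± 171 in vehicle lesions and 12.6 ± 2.78 in tamoxifen lesions. Aspn (asporin) fell by 5.00 and Col14a1 fell by 3.79 with tamoxifen (log2, adjusted p 0.000516 for both). Of the list 5 genes stayed above uninjured cord (26.3% of all genes were higher), Postn among them (log2 2.08, adjusted p = 0.0176).

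Among 9 tested receptors for fibrillar collagen 8 rose with injury (26.7% of all genes did) and 4 fell with tamoxifen (8.33% did). Itga11, a collagen-binding integrin chain of fibroblasts, fell by 3.43 (log2, adjusted p = 0.00425), from 14.3 CPM ± 11.1 (SD, n = 4). The endocytic receptor Mrc2 fell by 1.78 (adjusted p = 0.00585), and the integrin chain Itga10 fell by 1.30 (adjusted p = 0.00673). Of 10 genes of collagen breakdown 7 rose and 1, Mmp15, fell with injury, where 24.1% of all genes fell, and 6 fell with tamoxifen. Mmp2 fell by 2.79, Ctsk fell by 2.33 and Fap fell by 4.09 with tamoxifen (log2, adjusted p 0.00076, 0.000725 and 0.00131). None of the tested genes of these 6 lists rose from vehicle to tamoxifen lesions, where 7.79% of all genes did.

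In bulk tissue, fewer cells of a type and less RNA per cell cannot be told apart, and this holds for every level given here. Over all genes tested, 26.7% rose with injury and 8.33% fell with tamoxifen. Of 9 tested fibroblast markers 8 rose with injury and 6 fell with tamoxifen. Their summed level was 126 to 225 CPM in uninjured cord, 320 to 691 in vehicle lesions and 205 to 234 in tamoxifen lesions. Within each group, Col1a1, Col1a2 and Col3a1 took the same order over the libraries as this sum. Col5a1 did so in vehicle and tamoxifen lesions and Col11a1 in vehicle lesions alone, while Col5a2 and Col5a3 did so in no group. Of pericyte and smooth muscle markers 9 of 11 rose and 4 fell, with summed levels of 338 to 396, 638 to 783 and 511 to 653 CPM. Pdgfrb, a receptor of pericytes and fibroblasts, fell by 1.04 with tamoxifen (log2, adjusted p = 0.000736), while the pericyte marker Rgs5 stood at 180.1 CPM in vehicle and 181 in tamoxifen lesions (adjusted p = 0.93). No fibroblast, pericyte or smooth muscle marker was at 0 in all libraries of a group. The part of these cells in the collagen levels was not tested.

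Meningeal markers varied within groups as well as between them. Of 10 tested, 4 rose with injury (26.7% of all genes did) and 3 fell with tamoxifen (8.33% of all genes did). Of these markers 0 passed between tamoxifen lesions and uninjured cord in edgeR, where 0 had an unadjusted p under 0.05, or in DESeq2. Their summed level was 779, 681, 515 and 190.2 CPM in uninjured libraries 376, 377, 385 and 467. Col1a1, Col1a2 and Col3a1 took the same order over these 4 libraries, and the other 4 members did not. In tamoxifen lesions library 549 had the lowest summed level, 208 CPM, against 524 to 618 in the other 3, and the lowest Col1a1, Col1a2, Col3a1 and Col5a1. Vehicle lesions ranged from 515 to 828 CPM. The highest of them by this sum, 428, had the lowest level of all 7 members. Ptgds alone had a mean of 555 CPM in vehicle lesions, where the mean sum was 699 CPM. By mean log2 CPM of the same markers the order differed, with 4.59 in 457, 4.24 in 402, 4.21 in 428 and 3.42 in 429. Library 457 was also the highest vehicle library for every member but Col5a3. The part of meningeal tissue in the results was not tested.

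**Figure D5:**
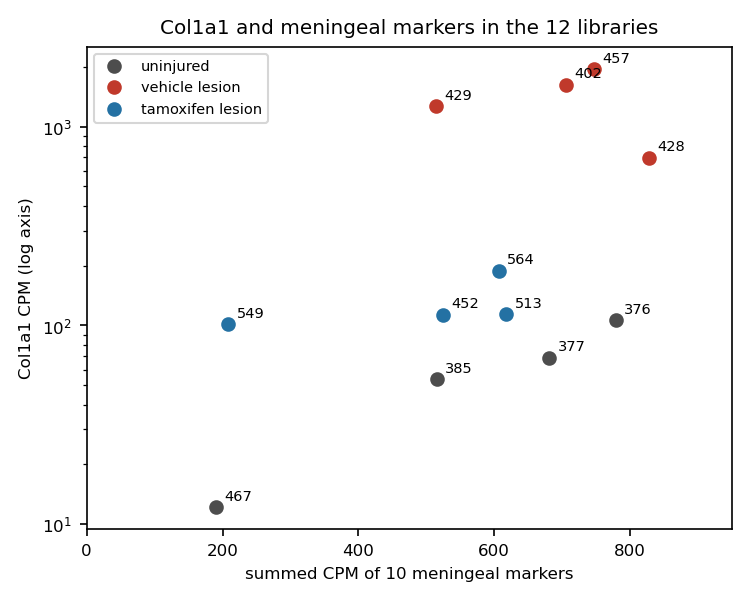
Col1a1 CPM (log axis) against the summed CPM of 10 meningeal markers in the 12 libraries, labelled by mouse number. Within uninjured cord the points climb from 467 to 376, while vehicle libraries lie at 698 CPM of Col1a1 or more over summed levels of 515 to 828 CPM.

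Markers of cartilage, bone and fat, tissues that also express fibrillar collagens, moved with the members in part. Of 12 tested, 4 rose and 1 fell with injury (26.7% and 24.1% of all genes did), and 7 were not called. With tamoxifen 6 fell and 1 rose (8.33% and 7.79% of all genes did), and 5 were not called. Their median log2 change with tamoxifen was -2.80. Their summed level was 52.8 to 72.7 CPM in uninjured cord, 54.8 to 126 in vehicle lesions and 53.0 to 65.7 in tamoxifen lesions. Among vehicle lesions it was highest in 402 and 457, which also had the most Col1a1, and lowest in 428, which had the least. The cartilage gene Comp had a mean of 1.17 CPM in uninjured cord, 13.5 in vehicle (range 2.47 to 23.8) and 1.42 in tamoxifen lesions. The bone gene Ibsp had means of 0.683, 7.51 (range 0 to 21.2) and 0.248 CPM. Hapln1 of the same list went the other way and passed with injury and with tamoxifen, at 24.3, 14.9 and 20.1 CPM. No gene of the list was at 0 in all libraries of a group. Of 9 Schwann cell and nerve root markers 5 rose and 2 fell, with summed levels of 256 to 588, 479 to 693 and 382 to 443 CPM. The part of these tissues in the collagen levels was not tested.

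Of 13 tested skeletal muscle markers 5 fell from vehicle to tamoxifen lesions, where 8.33% of all genes fell. Their summed level was 16.8 to 1145 CPM in uninjured cord, 25.7 to 900 in vehicle lesions and 12.3 to 37.8 in tamoxifen lesions. Vehicle library 428, at 25.7 CPM of these markers, held 698 CPM of Col1a1 and 844 CPM of Col3a1, above every tamoxifen library. Uninjured library 377, at 1145 CPM of muscle markers, held 69.0 CPM of Col1a1. Uninjured library 376, at 17.2 CPM of muscle markers, held 106 CPM. Among vehicle libraries the muscle sums were 900, 420, 347 and 25.7 CPM in 457, 402, 429 and 428. Col1a1, Col1a2, Col3a1, Col5a1 and Col11a1 took the same order over them, and Col5a2 and Col5a3 did not. Tamoxifen library 564 had the highest muscle sum of its group, 37.8 CPM. The part of muscle tissue in the collagen levels was not tested beyond the fit without the libraries high in muscle transcripts. All 8 macrophage markers rose with injury, and 1 of 8 fell with tamoxifen, a share near that of all genes (8.33%). Library 564, which stood highest for 6 members, had the lowest macrophage level of the tamoxifen lesions, at 715 CPM, where 513 had 1892 and 549 had 1934.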

How the data were processed

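Total RNA of 12 spinal cord samples was sequenced, 4 mice in each of 3 groups. The build mm9 and the tools HTSeq, Cufflinks, TopHat and Picard are named per the submitters' processing notes, without roles, and strand use is not stated there. Raw counts per gene and FPKM (fragments per kilobase, scaled by depth) were deposited by the authors in separate tables. Counts were used for tests and CPM, FPKM for comparing levels between genes. In R 4.3.3, edgeR 4.0.16 was run with filterByExpr (minimum count 10, minimum total 15), TMM factors and 1 quasi-likelihood fit of 3 group means over all 12 libraries (9 residual degrees of freedom). P-values are two-sided and adjusted by Benjamini-Hochberg over the 16473 genes tested, with a threshold of 0.05. Intervals are 95%. Correlations used log2 CPM with 0.1 added.

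Library totals of 7967970 to 12581324 counts limit precision for scarce genes: Col5a3 had 39 counts in library 376. Counting error does not cover PCR duplicates, as reads carry no molecular identifiers. On simulated data, 82% of genes with a true 2-fold change and 100% with a 4-fold change were recovered for tamoxifen against vehicle. There were 13 false calls among 16333 genes. The simulation left out each gene's own quasi-likelihood spread. Recovery of genes as variable as Col3a1 (SD 75.7% of the mean CPM in tamoxifen lesions) was therefore not tested. The members' ratio of counts to FPKM differed by -0.11 to 0.05 (log2) between libraries 513, 549 and 564 and the other 9.

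The members and the gene lists were chosen with earlier results of these data known. All 7 members are named in every comparison; of each list of other genes, up to 3 with the smallest p between tamoxifen and vehicle lesions and every other fibril-forming chain; for likeness of pattern, 5 genes for Col1a1 and up to 3 for the others. Pdgfrb, Rgs5, Mmp15, Comp, Ibsp, Hapln1 and Ptgds were named after their values were seen. Mia3 and Gp6 were not tested. Alternatives were other scaling, filters, samples and models, DESeq2 1.42.0, limma 3.58.1 on log2 FPKM, terms for sex and sample name series, and libraries left out.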

Additional observations from a re-analysis of the deposited data

Results flagged for a closer look

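Of 21 groups of 4 libraries (7 genes in 3 groups), 2 had a library whose gap to its nearest neighbour as a share of the group's range was above Dixon's 95% critical value; chance gives about 1 such group in 20. Both were tamoxifen library 564. It held 189 CPM of Col1a1, where the next library had 114, and the gap was 0.861 of the range. It held 54.6 CPM of Col5a2, where the next had 29.7, and the gap was 0.852 of the range. Col3a1 was also highest there, at 278 CPM against 104.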

How the results depend on the processing

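Of the member values under the alternatives, 113 of tamoxifen against vehicle, 117 of tamoxifen against uninjured and 126 of vehicle against uninjured kept their direction and side of the threshold, while 27, 16 and 7 lost a call and 0, 4 and 0 gained one. With the sample name series as a term, 0 members passed in tamoxifen against vehicle and 0 in tamoxifen against uninjured. All 3 libraries of the other series are tamoxifen lesions, so with the term both comparisons rest on tamoxifen library 452 alone. Leaving out the libraries with sample names 106 to 108, an alternative chosen after seeing the data, is in effect the same comparison. The fits are therefore not separate evidence. In them the lone tamoxifen library is assumed to vary like the other groups. Under both, Col1a1 in tamoxifen against vehicle was at -3.61 (log2), against -3.42 with all libraries and no such term. Without the libraries high in muscle transcripts, where vehicle library 428 was alone under the same assumption, 3 members passed in vehicle against uninjured, 0 in tamoxifen against vehicle and 3 (Col5a1, Col5a2 and Col5a3) in tamoxifen against uninjured. Fewer libraries entered these fits. Leaving out 1 library at a time, 6 to 7, 6 to 7 and 3 to 5 members passed in vehicle against uninjured, tamoxifen against vehicle and tamoxifen against uninjured. Col11a1 in tamoxifen against uninjured ran from -0.296 (without uninjured library 376) to 0.052 (without tamoxifen library 564) and changed sign, to 0.03 without uninjured library 385 and 0.12 without the libraries high in muscle; the cause was not tested, and it passed in none. The ratio of Col1a2 to Col1a1 in vehicle lesions was 1.14 from CPM; the cause was not tested. Limma on log2(FPKM + 1) gave Col5a3 a rise with injury of 2.27, since a value added to low FPKM shrinks the change. No paired analysis was possible because the mouse numbers are not shared between groups. Depth limits Col5a3 most, with 39 to 954 counts per library.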
